A study of Homo sapiens with 6 samples.

Results

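The 10 genes described here encode mTOR, its scaffold proteins RPTOR and RICTOR, and regulators that act on mTORC1 from upstream: DDIT4, TSC1, TSC2, RHEB, DEPTOR, RRAGC and RRAGD. They were chosen by name, with earlier results of these data known, and all 10 were found by symbol among 57905 gene identifiers of the deposited table. RNA was measured by sequencing of poly(A)-selected libraries from A549 cells, an established line grown from a human lung adenocarcinoma. In 3 samples miR-19a had been transfected at 25 nM with a Lipofectamine reagent, and in the other 3 the negative control miR-NC, also at 25 nM, and the harvest time is stated as 24 h. Both groups therefore carried a transfected small RNA, and untransfected cells were not analysed here. The labels do not say which arm of miR-19a was used. Nor do they say whether replicates came from separate cultures, and the p-values then reflect only the spread between these libraries, possibly technical.

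As background, mTOR is a kinase that couples nutrient and growth factor supply to protein synthesis and cell growth. With RPTOR it forms mTORC1, and with RICTOR in place of RPTOR it forms mTORC2. Amino acids bring mTORC1 to the lysosome through heterodimers of Rag GTPases, and growth factors act through AKT, which restrains the TSC1 and TSC2 complex, an inhibitor of the mTORC1 activator RHEB. A549 cells are known to carry an inactivating mutation of STK11, the kinase that activates AMPK, another input to this pathway. Transcript levels do not measure the activity of the kinase.

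miR-19a lowers transcripts that pair with its seed, and the sequences that matter for the members are therefore shown here. The mature 3p arm, taken from RefSeq on GRCh38.p14 (chr13:91350939-91350961, plus strand), has its seed, bases 2 to 8, in capitals.
hsa-miR-19a-3p: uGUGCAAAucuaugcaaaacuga
Matches to this seed were sought in the 3′ UTR of the transcript with the longest coding sequence (GENCODE v29, GRCh38). From the shortest up, the classes were 6mer (TTGCAC), 7mer-A1 (TTGCACA), 7mer-m8 (TTTGCAC) and 8mer (TTTGCACA), and each site was counted once in its longest class. Of the 10 members, 4 had a match of 7 nt or more, and the other 6 had none of any class. Among 10415 genes that were tested for expression and had a 3′ UTR, 18.6% had a match of 7 nt or more. Of the 8 members tested for expression, 3 had one. The median 3′ UTR of those 10415 genes was 1000 nt long. The 4 members with a match had 1355 to 4887 nt, and the 6 with none had 110 to 2038 nt. The share takes no account of length. All the matches in members lay in the last exon, on the minus strand of the genome, and are shown in the sense of the transcript with the match in capitals.
RICTOR 8mer, chr5:38941220-38941227: tatcagtgtttttgtTTTGCACAaactaaa
TSC1 7mer-m8, chr9:132891777-132891783: gaggcagccacgcatTTTGCACtaggaaga
TSC1 7mer-m8, chr9:132891351-132891357: ataaaaatttattgtTTTGCACtac
RRAGC 7mer-m8, chr1:38838885-38838891: aaatggaagaaaattTTTGCACctatgttc
RRAGC 7mer-A1, chr1:38839073-38839079: tttcagttttggacaTTGCACAactaagac
RRAGD 7mer-m8, chr6:89367750-89367756: aggaattgtacatatTTTGCACtttttcat
RICTOR thus had the only 8mer among the members, at bases 1077 to 1084 of a 3′ UTR of 2284 nt. TSC1 had its second 7mer-m8 at bases 4878 to 4884 of 4887, a few bases from the annotated end of the transcript, and a 6mer upstream of both. RRAGD also had a 6mer. A match is a stretch of letters and does not show that the microRNA binds there. With the longest annotated 3′ UTR of each gene the same 4 members had matches, and RICTOR, then with 4385 nt, gained a 7mer-A1 at chr5:38938532-38938538.

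**Figure D1:**
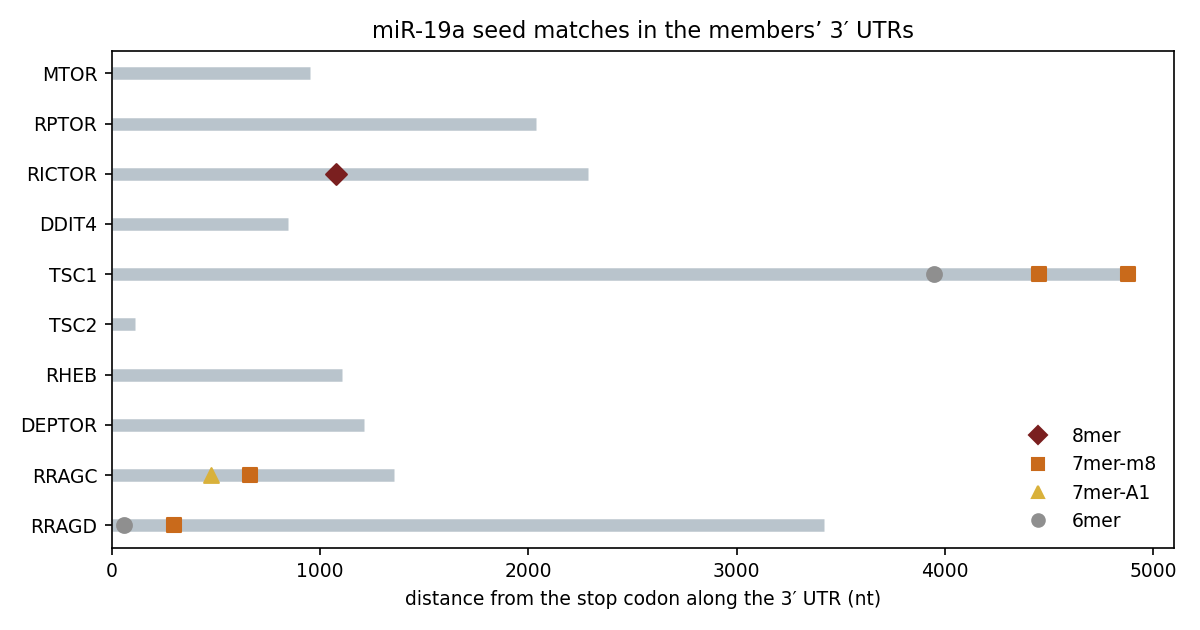
Matches to the miR-19a seed along the 3′ UTRs of the 10 members. Each bar is a 3′ UTR drawn to scale from the stop codon (nt), and markers show the class of each match: RICTOR, TSC1, RRAGC and RRAGD have matches of 7 nt or more, and the other 6 bars carry none.

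Total counts lay between 16323470 and 17957932 in miR-19a libraries and between 15699037 and 16652353 in miR-NC libraries. Normalised counts (CPM) are counts scaled to the library total and by TMM factors, and FPKM are the authors' values, scaled for gene length as well. Of 6 markers of carcinoma epithelium, 5 had a mean FPKM of at least 1 (KRT8, KRT18, KRT19, KRT7 and CDH1) and EPCAM lay under it. The list summed to 1849 to 1930 FPKM in miR-19a against 1722 to 1755 FPKM in miR-NC. By log2 fold change KRT8, KRT18 and KRT19 rose by 0.28, 0.38 and 0.40, and KRT7 and CDH1 fell by 0.28 and 0.17 (edgeR adjusted p at most 0.0294). Among 7 fibroblast markers 1 had a mean FPKM of at least 1, COL1A1, and the summed level of the list was 2.53 to 3.01 FPKM in miR-19a against 0.9 to 1.1 FPKM in miR-NC. COL1A1 rose by 1.52 (SE 0.095, edgeR adjusted p = 2.6e-22). COL3A1, under the filter, was counted 10, 5 and 8 times in miR-19a libraries and 2, 2 and 3 times in miR-NC libraries. The other 5 fibroblast markers, DCN and LUM among them, were at most at 0.13 FPKM in any library, and the part of this list in the results was not tested. Of 5 immune markers CD14 alone passed, with a sum of 1.48 to 1.75 FPKM in miR-19a and 0.88 to 1.32 FPKM in miR-NC and CD3E at 0 in all 6 libraries. The 3 endothelial markers found summed to at most 0.05 FPKM. In bulk RNA, fewer cells that express a gene and less of its RNA per cell cannot be told apart.

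The design has 1 comparison, of transcript levels after transfection of miR-19a with those after miR-NC. Among the members DDIT4 rose by 60.1%, and RHEB and RPTOR rose by 14.6% and 8.82%. RICTOR, TSC1, TSC2 and RRAGC were lower by 11.3% to 17.8%, MTOR itself did not pass the test, and DEPTOR and RRAGD were under the expression filter of a mean FPKM of 1. Of the 8 tested members, 7 passed an adjusted p of 0.05 (edgeR's quasi-likelihood test, two-sided, Benjamini-Hochberg over 12452 genes), 3 higher and 4 lower. The background was high, since 48.4% of all tested genes passed, 24.9% higher and 23.5% lower. Groups did not overlap in CPM for 6 of the 8, against 54% of all tested genes. The median log2 fold change was -0.12 over the tested members and 0.00 over all tested genes.

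**Figure D2:**
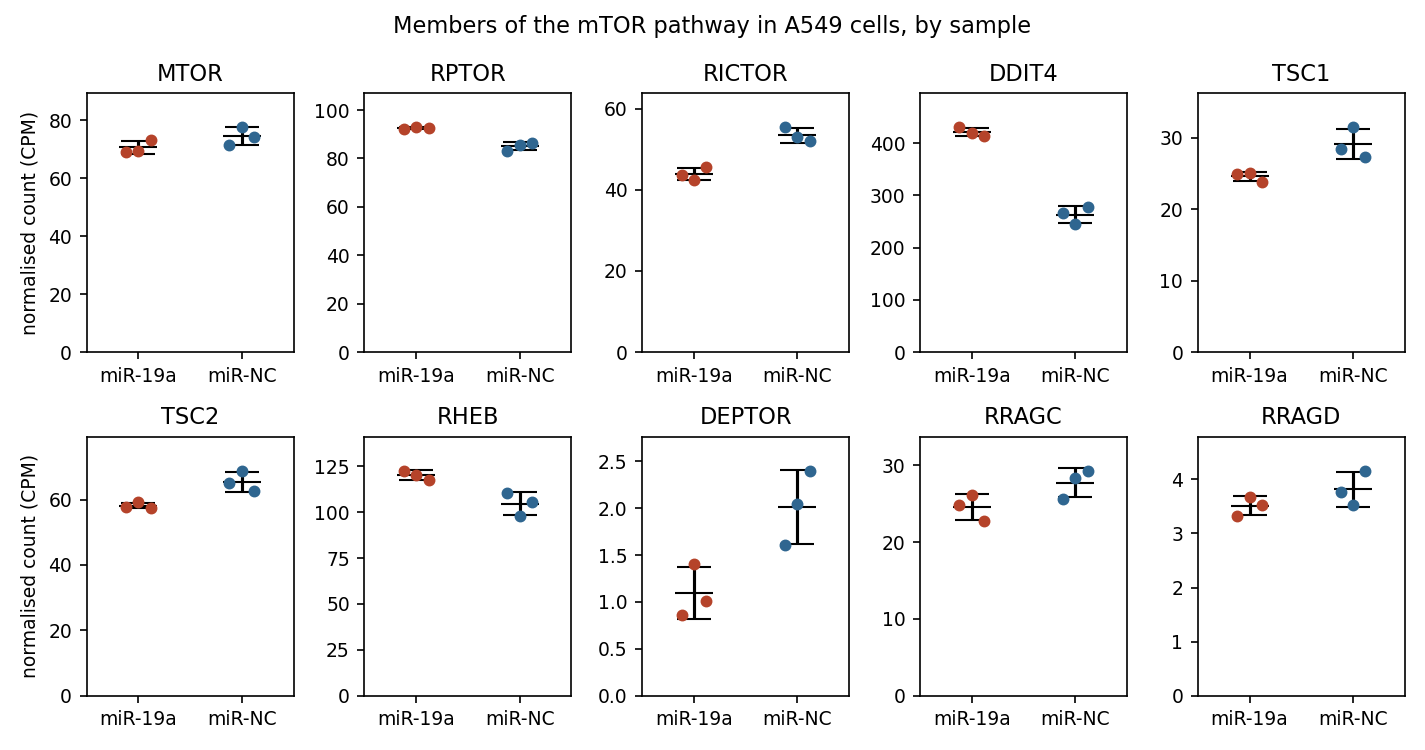
Normalised counts (CPM, linear axis from 0) of the 10 members in each library, miR-19a left and miR-NC right. Points are libraries, and bars give the mean ± SD (n = 3 each): DDIT4 is between 414.2 and 430.6 CPM in miR-19a and between 245.5 and 278.3 CPM in miR-NC.

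In FPKM, which allow levels of different genes to be set side by side, DDIT4 stood far above the others. It averaged 203.8 ± 3.95 FPKM in miR-19a and 128.7 ± 8.7 FPKM in miR-NC (SD, n = 3 each). RHEB followed with 33.79 FPKM in miR-19a and 29.8 FPKM in miR-NC, then RPTOR with 9.807 FPKM in miR-19a and 9.113 FPKM in miR-NC. The order continued with MTOR, TSC2, RRAGC, RICTOR and TSC1 in both groups, down to 2.47 FPKM in miR-19a and 2.953 FPKM in miR-NC for TSC1. Ranges of neighbours in this order did not overlap in miR-19a. In miR-NC the range of TSC2 (5.7 to 6.2 FPKM) overlapped both that of MTOR (5.93 to 6.41 FPKM) above it and that of RRAGC (4.97 to 5.73 FPKM) below it. DEPTOR and RRAGD were last, DEPTOR at 0.4133 and RRAGD at 0.6867 FPKM in miR-19a, against 0.7733 and 0.76 FPKM in miR-NC, where their ranges overlapped.

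Among the core subunits of the mTOR complexes, RPTOR rose by a small amount, RICTOR fell and MTOR did not pass the test. MTOR (ENSG00000198793, chr1:11106535-11262507), the catalytic kinase of both complexes, had 69.2, 69.5 and 73.3 CPM in miR-19a libraries and 71.5, 77.6 and 74.3 CPM in miR-NC libraries. The groups overlapped, and the log2 fold change of -0.08 (SE 0.051) did not pass the test (edgeR adjusted p = 0.225, 95% interval -0.18 to 0.03). RPTOR (ENSG00000141564, chr17:80544819-80966371), which recruits substrates to mTORC1, had 92.3, 92.9 and 92.5 CPM in miR-19a and 83.2, 85.7 and 86.3 CPM in miR-NC. Every miR-19a library was above every miR-NC library, with a log2 fold change of 0.12 (SE 0.047, edgeR adjusted p = 0.0256). That call was lost when miR-19a replicate 1 (adjusted p = 0.0619), miR-19a replicate 2 (0.0713) or miR-NC replicate 1 (0.112) was left out, with library totals alone (0.0541) and with limma (0.0637 and 0.0647), at log2 fold changes of 0.10 to 0.12.

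RICTOR (ENSG00000164327, chr5:38937919-39074408), the defining subunit of mTORC2 and the member with the 8mer, had 43.6, 42.5 and 45.5 CPM in miR-19a libraries. In miR-NC libraries it had 55.4, 52.9 and 51.9 CPM, all above the miR-19a values. Its log2 fold change was -0.28 (SE 0.058, edgeR adjusted p = 3.2e-05), the largest fall among the tested members. In the annotation 229 exonic bases of RICTOR, 1.69% of its exon sequence, are shared with OSMR on the other strand, a gene that rose by 0.83 (SE 0.038). The sources used here do not give a strand setting for the counting, so reads from this stretch cannot be told apart.

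DEPTOR (ENSG00000155792, chromosome 8), an inhibitor that binds mTOR in both complexes, was counted 14, 24 and 18 times in miR-19a libraries and 27, 33 and 38 times in miR-NC libraries. All 3 miR-19a libraries had lower counts, 56 in sum against 98 in miR-NC. With no expression filter (28934 genes tested) its log2 fold change was -0.87 (SE 0.28, 95% interval -1.42 to -0.32, edgeR adjusted p = 0.0111). It is the member with the widest interval, and it has no match to the seed in its 3′ UTR.

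The balance of the scaffolds was read within each library, where library scaling cancels. RPTOR over RICTOR, as a ratio of FPKM, was 3.05, 3.16 and 2.93 in miR-19a libraries and 2.17, 2.34 and 2.4 in miR-NC libraries. RHEB over TSC2 was 6.68, 6.41 and 6.42 in miR-19a against 5.36, 4.49 and 5.28 in miR-NC. TSC1 over TSC2 was 0.484, 0.476 and 0.465 in miR-19a against 0.492, 0.513 and 0.489 in miR-NC. The groups did not overlap for any of these 3 ratios, with differences in mean log2 ratio of 0.41, 0.37 and -0.07. Each gave p = 0.10 in a two-sided exact permutation test, also after adjustment over the 3, and this is the smallest p that 3 against 3 libraries allow. They use the values already tested gene by gene and add no independent evidence.

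**Figure D3:**
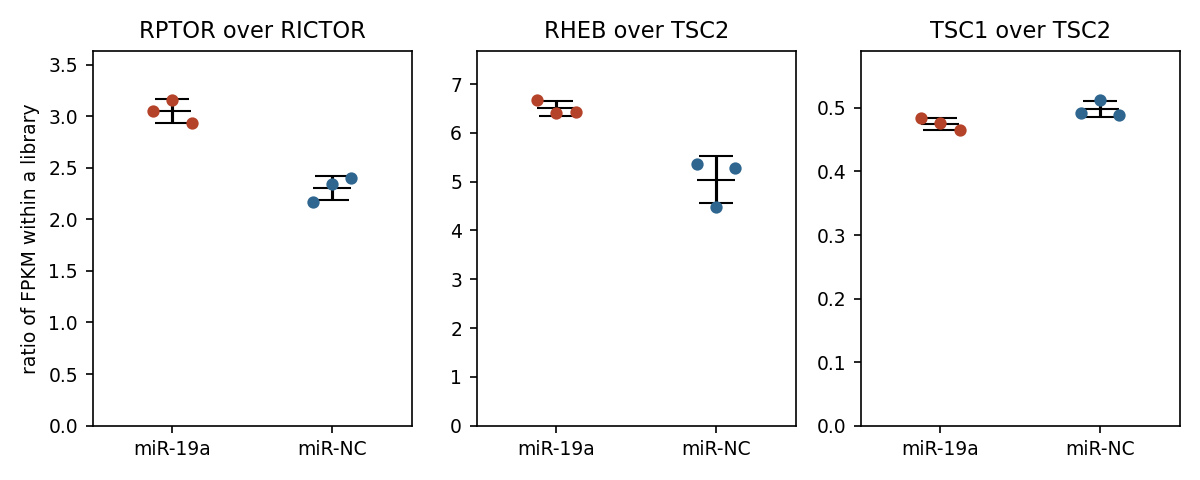
Ratios of FPKM between members within each library, miR-19a left and miR-NC right, with the mean ± SD (n = 3 each) as bars. RPTOR over RICTOR averages 3.05 ± 0.112 in miR-19a and 2.3 ± 0.12 in miR-NC, RHEB over TSC2 averages 6.5 ± 0.154 in miR-19a and 5.04 ± 0.483 in miR-NC, and TSC1 over TSC2 0.475 ± 0.0098 in miR-19a and 0.498 ± 0.0128 in miR-NC.

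TSC1 and TSC2, subunits of the complex that acts as the GTPase-activating inhibitor of RHEB, fell, and RHEB rose. TBC1D7, a further subunit of the complex and not a member, did not pass (log2 fold change 0.10, SE 0.08, edgeR adjusted p = 0.324), and its groups overlapped. TSC1 (ENSG00000165699, chr9:132891348-132946874), the stabilising subunit hamartin, had 24.9, 25.1 and 23.9 CPM in miR-19a and 28.5, 31.5 and 27.4 CPM in miR-NC. The groups did not overlap, and the log2 fold change was -0.24 (SE 0.073, edgeR adjusted p = 0.00385). Without miR-NC replicate 2, its highest library, the change was -0.18 and the call ended (adjusted p = 0.051). TSC1 holds the matches shown above, whereas TSC2, which fell too, has none in its 3′ UTR of 110 nt.

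TSC2 (ENSG00000103197, chr16:2047465-2089487), the catalytic subunit tuberin, had 57.8, 59.1 and 57.5 CPM in miR-19a libraries and 64.9, 68.8 and 62.7 CPM in miR-NC libraries. Again all miR-19a values were lower, with a log2 fold change of -0.17 (SE 0.053, edgeR adjusted p = 0.00531). TSC2 shares 778 exonic bases with PKD1 and 402 with NTHL1, both on the other strand, 3.96% and 2.05% of its exon sequence. These neighbours had log2 fold changes of -0.20 (SE 0.05) and -0.30 (SE 0.072), and without a known strand setting shared reads cannot be assigned.

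RHEB (ENSG00000106615, chr7:151466012-151520120), the small GTPase that activates mTORC1 at the lysosome, had 122.6, 120.4 and 117.3 CPM in miR-19a and 110.6, 98.2 and 105.4 CPM in miR-NC. The lowest miR-19a library was above the highest miR-NC library, and the log2 fold change was 0.20 (SE 0.045, edgeR adjusted p = 0.00021). RHEB has processed pseudogenes that could share reads, and those in the table, RHEBP1, RHEBP2 and RHEBP3, had at most 11 counts in a miR-19a library and 18 in a miR-NC library.

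DDIT4 (ENSG00000168209, chr10:72273920-72276036), also known as REDD1, is a stress-induced protein that restrains mTORC1 by way of the TSC complex. Its 3 miR-19a libraries had 430.6, 420.2 and 414.2 CPM, and its miR-NC libraries 266.4, 245.5 and 278.3 CPM. The separation was wide against the spread within groups, with a log2 fold change of 0.68 (SE 0.039, 95% interval 0.60 to 0.76, edgeR adjusted p = 6.7e-24). In size this change exceeded that of 92.9% of tested genes, whereas the other members that passed lay between -0.28 and 0.20, beside a median size of 0.18 over all tested genes. DDIT4 shares 847 exonic bases, 41.2% of its exon sequence, with the antisense gene DDIT4-AS1. That gene was counted at most 7 times in a library, and DDIT4 at least 3963 times. Without a known strand setting reads from the shared stretch cannot be assigned, so these counts do not show how many came from DDIT4-AS1.

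The Rag GTPases RRAGC and RRAGD, paralogs that pair with RRAGA or RRAGB to hold mTORC1 at the lysosome, both carry matches to the seed. RRAGC (ENSG00000116954, chr1:38838198-38859823) had 24.9, 26.1 and 22.7 CPM in miR-19a and 25.6, 28.4 and 29.3 CPM in miR-NC. These groups overlapped by 1 library, and the log2 fold change of -0.18 (SE 0.075) passed narrowly (edgeR adjusted p = 0.045). The call ended with DESeq2 (adjusted p = 0.114), with limma (0.0838 and 0.0855), with wider gene filters (0.0531 and 0.105) and without miR-19a replicate 1 (0.0736). It also ended when miR-19a replicate 3 (-0.12, adjusted p = 0.227), miR-NC replicate 2 (-0.16, adjusted p = 0.101) or miR-NC replicate 3 (-0.14, adjusted p = 0.185) was left out. RRAGC shares 1183 exonic bases, 22.9% of its exon sequence, with AL139260.2 on the same strand, whose own counts were not analysed here.

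RRAGD (ENSG00000025039, chr6:89364636-89412270) was low, with 3.33, 3.68 and 3.53 CPM in miR-19a libraries and 3.76, 3.53 and 4.16 CPM in miR-NC libraries. The groups overlapped, and with no expression filter the log2 fold change was -0.11 (SE 0.18, edgeR adjusted p = 0.719). Its interval of -0.47 to 0.24 covers both no change and a fall as large as those of RICTOR and TSC1, so a difference of that size was not detectable at this depth.

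Seed matches and direction can be set side by side across the members. The 3 tested members with a match of 7 nt or more, RICTOR, TSC1 and RRAGC, were each called lower, RRAGC narrowly as given above. Over all tested genes with such a match 39.4% were called lower and 22% higher. Of the 5 tested members with no match, DDIT4, RHEB and RPTOR were called higher, TSC2 lower and MTOR neither way. Genes with no match were called higher in 29.5% and lower in 21.4%. The 2 members under the filter differ from this division in the fit with no filter. DEPTOR, with no match, was called lower there (-0.87, edgeR adjusted p = 0.0111). RRAGD, with a 7mer-m8, did not pass (-0.11, edgeR adjusted p = 0.719). With so few members these counts describe the genes and test nothing.

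**Figure D4:**
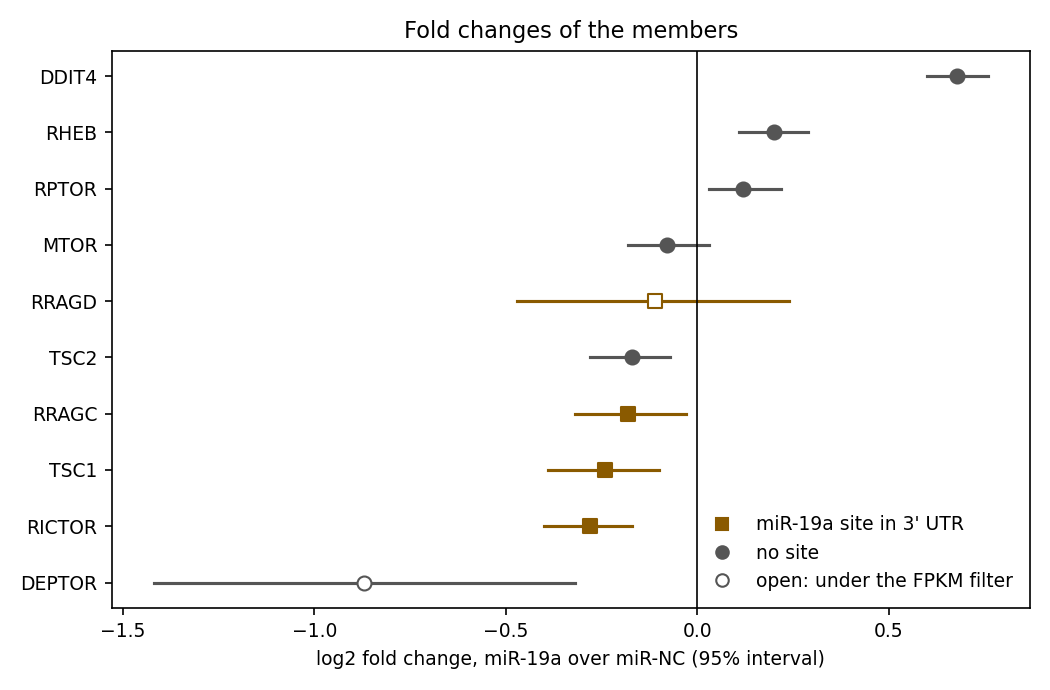
Log2 fold changes of the members, miR-19a over miR-NC, with 95% intervals from edgeR. Squares have a miR-19a match in the 3′ UTR and circles have none; open symbols (DEPTOR at -0.87 and RRAGD at -0.11) were under the FPKM filter and come from the fit without it. DDIT4 at 0.68 stands apart from RHEB and RPTOR. The members with a match lie at or left of -0.11, as do TSC2 and DEPTOR, which have none.

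The tested genes whose profiles over the 6 libraries were most like that of DDIT4 were KLF6, ACSS1 and CD99. Likeness was the root mean square difference of log2 CPM, centred on the miR-NC mean, and came to 0.028, 0.036 and 0.038. For RICTOR, the falling member with the smallest adjusted p among the 8 tested, the nearest were BSG at 0.014, NAXE at 0.018 and HMG20B at 0.020. These values follow mostly from the size of the difference between groups.

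Beyond the members, 107 other genes of the pathway stood on 10 lists, and 98 of them were tested. Of these, 29 rose and 26 fell, 56.1% in all, beside 48.4% of all tested genes, with a median log2 fold change of 0.00. Among subunits and assembly factors of the mTOR complexes 1 of 6 rose and 1 fell. PRR5, a subunit of mTORC2, rose by 0.45 (SE 0.11), and MLST8, which binds the kinase domain in both complexes, fell by 0.35 (SE 0.064), to 34.15 ± 3 CPM in miR-19a against 43.45 ± 1.69 CPM in miR-NC. AKT1S1, the mTORC1 inhibitor PRAS40, did not pass at 0.06 (SE 0.043), nor did MAPKAP1 of mTORC2 at -0.07 (SE 0.046).

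The lysosomal arm changed in both directions. Of 11 genes for Rag GTPases, the Ragulator that anchors them and the folliculin complex, 4 rose and 3 fell. FNIP2, a partner of folliculin, rose by 0.94 (SE 0.10), to 16.3 ± 0.537 CPM in miR-19a against 8.487 ± 0.831 CPM in miR-NC, while FLCN, folliculin itself, which has an 8mer, fell by 0.39 (SE 0.073). SLC38A9, the lysosomal arginine sensor, rose by 0.67 (SE 0.077), and the Ragulator subunit LAMTOR5 fell by 0.29 (SE 0.049). RRAGA and RRAGB, the partners of RRAGC and RRAGD, did not pass, at -0.06 (SE 0.045) and -0.11 (SE 0.12). The median of the list was 0.02.

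Of 15 tested genes for GATOR, KICSTOR and amino acid sensors, 3 rose and 5 fell, with a median of -0.05. SESN2, a leucine sensor that restrains mTORC1, rose by 0.84 (SE 0.066), to 48.24 ± 0.89 CPM in miR-19a against 27 ± 3 CPM in miR-NC, and its relative SESN1 by 0.49 (SE 0.08). BMT2, the S-adenosylmethionine sensor SAMTOR, which has a 7mer-m8, fell by 0.95 (SE 0.13), and NPRL3, a subunit of the inhibitory GATOR1 complex, by 0.36 (SE 0.065). On the short list of relatives of the TSC complex, RHEB and DDIT4, 0 of 2 tested genes rose and 1 fell. That gene was RHEBL1, the paralog of RHEB, at -0.41 (SE 0.17), a call that ended with DESeq2 (adjusted p = 0.0847), with no gene filter (0.0585) and when miR-19a replicate 1 (0.111), miR-19a replicate 3 (0.06) or miR-NC replicate 2 (0.121) was left out. DDIT4L, the paralog of DDIT4, lay under the filter at 0.6833 FPKM in miR-19a and 1.26 FPKM in miR-NC.

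Growth factor and energy inputs were also mixed. Of 14 genes from PI3K to AKT, 5 rose and 4 fell, with a median of 0.02. IRS1, an adaptor of insulin and IGF receptors, fell by 0.61 (SE 0.051) and PIK3CB, a catalytic subunit of PI3K with a 7mer-m8, by 0.52 (SE 0.072). The regulatory subunit PIK3R1 rose by 0.50 (SE 0.08), whereas AKT1 and AKT2 did not pass at -0.02 (SE 0.043) and -0.04 (SE 0.039). For AMPK, which phosphorylates TSC2 and RPTOR, and its activators, 4 of 9 genes rose and 3 fell. PRKAA1, a catalytic subunit, fell to 36.25 ± 0.843 CPM in miR-19a against 79.35 ± 1.76 CPM in miR-NC, a larger change in size than that of DDIT4, and the subunit PRKAG1 fell by 0.30 (SE 0.056), while PRKAB2 rose by 0.56 (SE 0.067) and PRKAB1 by 0.20 (SE 0.06).

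Of 9 genes tied to the transcription of DDIT4 by glucocorticoid, hypoxia, ATF4 or other inputs, 4 rose and 2 fell, with a median of 0.00. TSC22D3, a glucocorticoid-induced gene listed as a marker of that input, rose by 1.14 (SE 0.085), to 26.52 ± 0.563 CPM in miR-19a against 12.06 ± 0.414 CPM in miR-NC. KLF9, another glucocorticoid-induced gene and a transcription factor, rose by 0.60 (SE 0.13), and the receptor NR3C1 did not pass at -0.03 (SE 0.042). HIF1A, the hypoxia factor, fell by 0.29 (SE 0.039). ATF4 rose by 0.10 (SE 0.039, edgeR adjusted p = 0.0287). Its groups did not overlap in CPM but did in FPKM, at 112.7 to 117.5 in miR-19a and 101.9 to 113.4 in miR-NC.

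Downstream of the kinase, 7 of 19 substrates and effectors rose and 3 fell, with a median of 0.08. EIF4EBP2, a repressor of cap-dependent translation that mTORC1 inactivates, rose by 0.79 (SE 0.051) although it has an 8mer, to 94.1 ± 4.96 CPM in miR-19a against 54.33 ± 1.12 CPM in miR-NC. Its paralog EIF4EBP1 did not pass at -0.02 (SE 0.052). LPIN1, a phosphatidate phosphatase that mTORC1 keeps out of the nucleus, rose by 0.53 (SE 0.055), MAF1, a repressor of RNA polymerase III, fell by 0.32 (SE 0.044), and MITF fell by 0.63 (SE 0.088). RPS6KB1 and RPS6KB2, the S6 kinases, rose by 0.20 (SE 0.046) and 0.26 (SE 0.062).

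Of 8 genes that mTORC1 is known to raise through ATF4, 1 rose and 3 fell, with a median of -0.05. The amino acid transporter SLC7A5 rose by 0.38 (SE 0.035), and the cystine transporter SLC7A11, which has an 8mer, fell by 0.75 (SE 0.039), to 229.4 ± 6.7 CPM in miR-19a against 386.2 ± 15.1 CPM in miR-NC. PSPH, of serine synthesis, fell by 0.20 (SE 0.064), which did not pass once miR-19a replicate 2 was left out (-0.15, adjusted p = 0.0811), and ASNS, PHGDH, PSAT1 and SHMT2 did not pass. Among 5 tested targets of TFEB and TFE3, factors that folliculin and the Rag GTPases restrain, 0 rose and 1 fell, the lysosomal protease CTSD at -0.18 (SE 0.041). In CPM the groups of CTSD overlapped, at 316.1 to 344.1 in miR-19a and 340.3 to 401.5 in miR-NC. SQSTM1, LAMP1, MCOLN1 and ATP6V1H did not pass. GPNMB, under the filter, was counted 9, 9 and 6 times in miR-19a libraries and 28, 18 and 22 times in miR-NC libraries. The adjusted p behind each fall or rise named from these lists was at most 0.0326 (edgeR, Benjamini-Hochberg over 12452 genes).

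**Figure D5:**
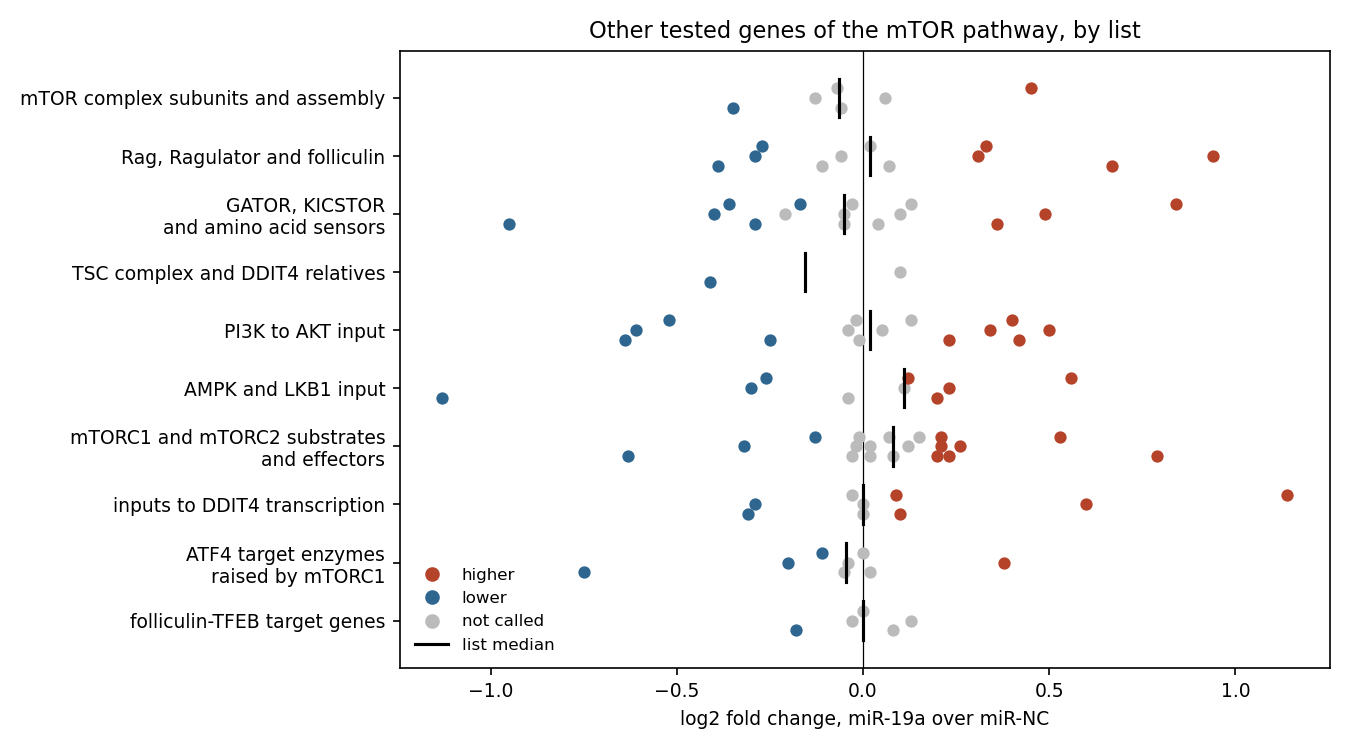
Log2 fold changes, miR-19a over miR-NC, of 98 tested genes of the pathway that are not members, by list. Each point is a gene, coloured by its call (edgeR adjusted p of 0.05), and black bars are list medians, which lie between -0.16 and 0.11; within most lists genes were called in both directions.

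Seed matches were also present among these genes. Of 24 with a match of 7 nt or more, 10 were called lower and 7 higher. Over all tested genes with such a match the shares were 39.4% and 22%. Of 68 with none, 15 were called lower and 19 higher, beside 21.4% and 29.5% of all tested genes with none. These counts were not tested against those shares. The remaining genes were 5 with a 6mer alone, 3 called higher and 1 lower, and 1 with no 3′ UTR in the transcript used. Of the genes named above without their match, PRKAB2 (7mer-m8), RPS6KB1 (7mer-A1), SESN2 (6mer) and SLC7A5 (6mer) rose. HIF1A (7mer-A1) and RHEBL1 (8mer) fell, and MAPKAP1 (8mer) did not pass. The 3′ UTR used can be short, as for PRKAA1 at 8 nt, so that a gene listed with no match may carry one in another transcript.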

How the data were processed

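Poly(A)-selected RNA was sequenced as paired reads, per the labels' protocols. Per the submitters' processing notes, bcl2fastq 2.17.1.14 was used. For alignment and counting, the tools, build and strand setting are not stated in what was used here. The deposited counts are whole numbers without normalization. The authors' FPKM values, identified per the file headers, have 2 decimals.

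Symbols were matched for all but 5567 of 57905 identifiers. Counts of the 12452 genes whose mean FPKM reached 1 were tested with edgeR 4.0.16 (R 4.3.3), by the quasi-likelihood test with TMM factors, two-sided, with Benjamini-Hochberg adjustment over all of them. Standard errors were derived from the fold change and the F statistic. 3′ UTRs came from GENCODE v29. The test was checked on simulated data. There, far fewer genes changed than were called here, and each by more than any called member except DDIT4. Alternatives were limma 3.58.1 on log2(FPKM + 1) and log2(FPKM + 0.1), DESeq2 1.42.0, other scalings and filters, a replicate block and each library left out. Tables were made in Python 3.11.15 with pandas 2.3.3 and scipy 1.17.1.

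The members and lists were chosen with earlier results of these data known. All 10 members are described. From each list at most 2 rising and 2 falling genes with the smallest adjusted p were named, and the 3 genes most like the rising and the falling member with the smallest adjusted p. A few that did not pass, or changed by little, were added after their values were seen. CASTOR2 matched no identifier. A few genes taken in by the rule are not reported here.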

Additional observations from a re-analysis of the deposited data

How the results depend on the processing

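The 8 tested members kept their direction under each of 15 alternatives where they could be fitted (118 pairs of member and alternative), and 16 pairs lost the call, all of RPTOR, RRAGC or TSC1 as given above. The number of members called was 7 with the replicate block and with median-of-ratios factors, 6 with DESeq2 and with library totals alone, and 5 with limma at either pseudocount. It was also 7 with either wider filter, but there RRAGC lost its call (adjusted p = 0.0531 and 0.105) and DEPTOR gained one (0.0112 and 0.0111). With a mean FPKM of at least 5 it was 5, since RICTOR and TSC1 were no longer tested. Leaving out a library gave 5 to 6 members called, 5325 to 5784 genes called of all tested and 48 to 55 of the pathway genes. Among the pathway genes named by smallest adjusted p, 6 of 453 pairs lost the call and 0 reversed. With a mean FPKM of at least 5 the pathway genes called were 33, since fewer genes were tested, against 55. The block on replicate number gave 5986 genes called, against 6023, 7 members and 55 pathway genes. Same-numbered libraries did not deviate together (correlations of 0.019, -0.009 and -0.036). This shows no visible pairing by number, but cannot tell whether such libraries were prepared together. The count of members with a match of 7 nt or more was 4 with either choice of 3′ UTR. The median of all genes moved to -0.02 with library totals alone. Counts of DEPTOR and RRAGD limit what can be seen for them.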
